A study of Danio rerio with 14 samples.

Results

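Transcripts of 5 genes of the methionine cycle and its branches were followed in adult zebrafish liver: ahcy, adkb, cbsb, sms and bhmt. Their probe sets were chosen by gene symbol in the array's own annotation, which gave 7 of the 15502 probe sets that are not controls (5 of 8793 annotated genes). One probe set each reports ahcy (NCBI gene 387530), adkb (322229) and sms (80872). A pair reports cbsb (266987) and another pair bhmt (322228), and the members of each pair are called first and second. All 7 passed the filter on low values, being above 4 on all 14 arrays. The samples were 14 livers of adult fish, each hybridised to 1 single-colour Affymetrix array. Some fish carried a pair of intact ahcy alleles (wild type, ahcy+/+) and some only a single one (heterozygous, ahcy+/-). Both genotypes shared each tank, and for a month 1 tank had the usual ration (regular diet) and 1 had excess food (overfed). There were 4 arrays of ahcy+/+ and 3 of ahcy+/- livers on the regular diet, and 5 of ahcy+/+ and 2 of ahcy+/- livers after overfeeding. Neither the ahcy allele nor the sex of the fish is given in the labels. As each diet had a single tank, an effect of the ration and one of the tank cannot be told apart. The arrays are called by the number in their titles, which is not unique within a tank, since 1 overfed array of each genotype has the number 4. The overfed ahcy+/+ array 4 carries the number 5 in its description.

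The methionine cycle supplies methyl groups. Methionine is turned into S-adenosylmethionine (SAM), methyltransferases take its methyl group, and the product S-adenosylhomocysteine (SAH) inhibits those same enzymes until it is removed. The enzyme made by ahcy splits SAH into homocysteine and adenosine, and adenosine kinase, the product of adkb, removes the adenosine and so keeps the reaction going. Homocysteine has more than one fate: betaine-homocysteine methyltransferase (bhmt), an abundant liver enzyme, turns it back into methionine, and cystathionine beta-synthase (cbsb) commits it to cysteine. Spermine synthase (sms) works on a side branch in which decarboxylated SAM gives up its aminopropyl group to make polyamines. In mammals, lack of several of these enzymes is linked to fatty liver.

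Values below are the authors' log2 probe set summaries, and a difference of 1 is a 2-fold change. A probe set was called where the adjusted p of limma (Benjamini-Hochberg over 15134 tested probe sets) was under 0.05. Array medians lay between 5.95 and 6.12. The liver markers fabp10a, a hepatocyte fatty acid binding protein (13.62 to 14.30), and tfa, which makes transferrin (13.80 to 14.11), were high on every array. The hepatocyte list as a whole moved with diet: its 14 measured genes averaged 12.11 to 12.46 on regular-diet arrays and 12.49 to 12.75 on overfed arrays. In ahcy+/+ livers 13 of the 14 had higher means after overfeeding, and hnf4a (0.67, adjusted p = 0.0216), fga (0.53, adjusted p = 0.0398) and tat (0.65, adjusted p = 0.0153) rose. The part of this shift in the diet differences of adkb, cbsb and sms was not tested. Markers of other tissues were present too. The 13 measured exocrine pancreas genes averaged 8.98 to 13.07 on regular-diet arrays and 7.27 to 12.39 on overfed arrays, and all 13 had lower means after overfeeding in both genotypes, with none called in ahcy+/+ livers. Of 10 intestine genes, 8 had lower means after overfeeding in ahcy+/+ livers and 1 was called. Over both genotypes 9 of the 10 were lower and 3 were called. All 9 skeletal muscle genes were lower over both genotypes, with 2 called. Of 9 blood and leukocyte genes 6 were lower there, with 1 called, and 3 were higher. Of all 15134 tested probe sets 4.5% were called in ahcy+/+ livers and 10.3% over both genotypes. Positive diet differences numbered 6719 and 5821 of these. In bulk tissue, fewer cells of a type and less RNA per cell cannot be told apart. The regular-diet ahcy+/+ array 9 stood apart, with a mean correlation of 0.912 with its group against 0.949 to 0.959 for the other 3. Its 3 vitellogenin genes, which make the yolk precursor of laying females, averaged 13.90, against 5.37 to 5.56 in the rest of the group. High vitellogenin was not limited to it: overfed ahcy+/- array 1 stood at 12.40 and overfed ahcy+/+ array 2 at 9.28, with 5.42 to 7.15 on the remaining arrays of the other groups. The 2 overfed ahcy+/- arrays thus differed in vitellogenin (12.40 and 6.56) and in the pancreas list (12.39 and 7.27). Results of the members and counts of all calls that rest on regular-diet ahcy+/+ array 9 are given without it as well. Exceptions are the genes listed as following each member, the members' median differences, and the shares of probe sets whose diets did not overlap. Of the other pathway genes only tyms is given without it, and the marker differences above include array 9. The lowest hepatocyte list level, 12.11, was also array 9, and the next lowest array averaged 12.37.

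The targeted gene was examined first. The ahcy transcript was near the same level on all 14 arrays, and ahcy+/- livers did not hold less of it. The values in regular-diet ahcy+/+ livers were 13.15, 13.16, 13.23 and 13.08, and in regular-diet ahcy+/- livers 13.32, 13.18 and 13.27. Overfed ahcy+/+ livers gave 13.18, 13.26, 13.26, 13.14 and 13.19, and overfed ahcy+/- livers 13.33 and 13.24. The genotypes overlap on both diets, and the whole range over 14 arrays was 0.25. Averaged over the diets, ahcy+/- minus ahcy+/+ was 0.09 (95% interval -0.05 to 0.23, adjusted p = 0.999), a fold of 1.06 (0.965 to 1.17). A halved transcript would stand at -1, below that interval. The diet difference was 0.05 (-0.12 to 0.22, adjusted p = 0.777) in ahcy+/+ and 0.03 (-0.19 to 0.26, adjusted p = 0.906) in ahcy+/- livers. Since the labels name no allele, it is not known here whether the probes lie in the altered part of the gene, so the level does not check the genotype labels. The highest value in the table was 14.74, and whether the brightest probes were saturated was not tested. The pooled SD of ahcy within groups was 0.06, at the 0.423 percentile of all probe sets. Whether this probe set would register a halved transcript was not tested either.

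**Figure D1:**
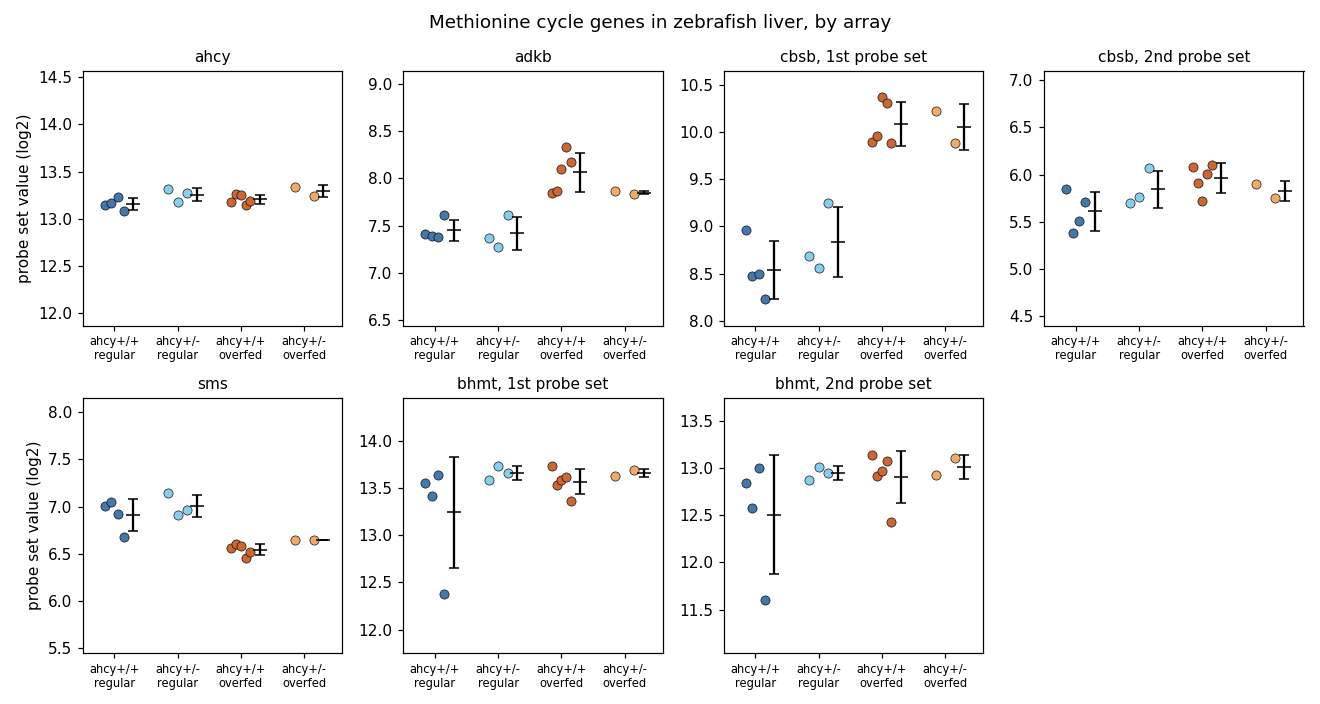
Log2 value of each of the 7 probe sets on every array (points), with the mean and SD of each group (bars beside the points). All panels span the same height. The overfed arrays lie above every regular-diet array for adkb and the first cbsb probe set and below them for sms, ahcy is flat, and 1 ahcy+/+ regular-diet array is low for bhmt.

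Adenosine kinase, the step after ahcy, was the next member. Overfed ahcy+/+ livers held 1.53-fold more adkb transcript than those on the regular diet. The values were 7.41, 7.39, 7.38 and 7.62 on the regular diet, and 7.85, 7.87, 8.10, 8.33 and 8.18 after overfeeding. All 5 overfed livers were above all 4 others, and the highest regular-diet value belonged to array 9. The difference was 0.62 ± 0.12 (SE; adjusted p = 0.0144). The ahcy+/- livers had adkb at 7.37, 7.28 and 7.61 on the regular diet and at 7.86 and 7.84 after overfeeding. These groups did not overlap either, which is a weak sign with 3 and 2 arrays, and the share of all probe sets separating them was not counted. The difference of 0.43 (95% interval 0.08 to 0.78) was not called (adjusted p = 0.267). Over both genotypes the diet difference was 0.52 ± 0.10 (SE; adjusted p = 0.00737). The heterozygotes' diet difference was lower by 0.19 (interaction, 95% interval of the difference -0.62 to 0.25, adjusted p = 1), so a difference between the genotypes was not detectable.

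Other genes that handle SAH or adenosine gave a second called case. The paralogue adka, also an adenosine kinase gene, averaged 10.67 ± 0.12 (SD, n = 4) and 10.60 ± 0.18 (SD, n = 3) on the regular diet, in ahcy+/+ and ahcy+/- livers, and 11.12 ± 0.22 (SD, n = 5) and 11.38 ± 0.05 (SD, n = 2) after overfeeding. It was called over both genotypes, at 0.61 ± 0.11 (SE; adjusted p = 0.00475), but in neither alone (adjusted p = 0.0568 in ahcy+/+ and 0.104 in ahcy+/-). One overfed ahcy+/+ liver, array 7, stood at 10.73, within the regular-diet range, while the other 4 lay between 11.17 and 11.26. The genes ahcyl1 and ahcyl2b encode relatives of the ahcy enzyme that in mammals regulate other proteins, and their diet differences over both genotypes were -0.06 (adjusted p = 0.854) and 0.26 (adjusted p = 0.174). A second ahcyl2b probe set stood at 0.58 and passed (adjusted p = 0.0189). So the probe sets of ahcyl2b do not give the same call.

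The largest difference among the 7 probe sets was in cbsb, the entry into transsulfuration. Its first probe set was 2.91-fold higher after overfeeding in ahcy+/+ livers. The values were 8.97, 8.47, 8.49 and 8.23 on the regular diet, and 9.89, 9.96, 10.37, 10.31 and 9.89 after overfeeding. The groups were far apart, with the highest regular-diet liver, array 2, well under the lowest overfed one. The difference was 1.54 ± 0.18 (SE; adjusted p = 0.00165), with a 95% interval of the fold from 2.21 to 3.83. Heterozygous livers read 8.69, 8.56 and 9.25 on the regular diet and 10.22 and 9.88 after overfeeding. Again the diets did not overlap, with the same limit of few arrays and no count over all probe sets. The difference of 1.22 ± 0.25 (SE) was not called (adjusted p = 0.0847). That call turned on single arrays and on scaling: it passed without regular-diet ahcy+/- array 8 (1.43, adjusted p = 0.0392), without ahcy+/+ array 9 (1.22, adjusted p = 0.0431), and with each array centred on its median (1.33, adjusted p = 0.0394). It was further from passing without regular-diet ahcy+/- array 3 (1.15, adjusted p = 0.203) or 7 (1.08, adjusted p = 0.166). The difference was 1.05 without overfed ahcy+/- array 1 and 1.39 without array 4. With the replicate number as a block the adjusted p was 0.639. Over both genotypes cbsb rose by 1.38 ± 0.15 (SE; adjusted p = 0.000663), and the interaction was -0.32 (95% interval -0.99 to 0.35, adjusted p = 1).

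The second cbsb probe set did not show a difference of that size. It read 5.85, 5.38, 5.50 and 5.71 in regular-diet ahcy+/+ livers and 6.08, 5.91, 5.72, 6.0 and 6.10 after overfeeding. The groups overlapped, and the difference of 0.35 (95% interval 0.08 to 0.62) was not called (adjusted p = 0.129). Its difference was -0.02 in ahcy+/- livers (95% interval -0.39 to 0.35). The intervals of the first and second probe sets do not overlap in either genotype, so the cbsb result rests on the first one alone. The second probe set lay between 5.38 and 6.10 on all arrays, close to the array medians.

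Spermine synthase moved the other way and by less. In ahcy+/+ livers sms stood at 7.0, 7.05, 6.92 and 6.67 on the regular diet and at 6.56, 6.61, 6.58, 6.46 and 6.52 after overfeeding. All overfed values were lower, and the lowest regular-diet value, that of array 9, was the nearest to them. The difference was -0.37 ± 0.10 (SE; adjusted p = 0.0463), a level 0.775 times that of the regular diet. Heterozygous livers read 7.14, 6.91 and 6.96 against 6.65 and 6.64, a difference of -0.36 (95% interval -0.64 to -0.08, adjusted p = 0.255). Over both genotypes sms fell by 0.36 ± 0.08 (SE; adjusted p = 0.0146). The ahcy+/+ call was close to the threshold and held in 2 of 14 fits that each left out 1 array: without array 9 it was -0.45 (adjusted p = 0.00952), without regular-diet ahcy+/- array 7 -0.37 (adjusted p = 0.0493), and in the other fits the adjusted p ran up to 0.141, without regular-diet ahcy+/+ array 5. The call over both genotypes ended without either overfed ahcy+/- array (adjusted p = 0.0546 without array 1 and 0.069 without array 4).

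For betaine-homocysteine methyltransferase, no diet or genotype difference was called. The first bhmt probe set read 13.55, 13.41, 13.63 and 12.37 in regular-diet ahcy+/+ livers, and the second 12.84, 12.58, 13.00 and 11.60. On both, array 9 was the low one. All other groups lay between 13.37 and 13.74 on the first probe set and between 12.43 and 13.14 on the second. With all arrays the diet difference in ahcy+/+ livers was 0.32 (95% interval -0.13 to 0.77, adjusted p = 0.426) on the first and 0.40 (-0.12 to 0.92, adjusted p = 0.386) on the second. Without array 9 these were 0.03 and 0.10. The genotype difference on the regular diet was 0.42 (-0.10 to 0.93) and 0.44 (-0.15 to 1.03), both adjusted p = 1, and rested on the same array: without it they were 0.13 and 0.14. Diet differences in ahcy+/- livers were 0.00 (-0.61 to 0.61) and 0.07 (-0.64 to 0.77). Array 9 was the lowest of its group on 5 of the 7 member probe sets and the highest on 1. Among the 36 other pathway genes it was the lowest for 13 and the highest for 15. Among all 15134 tested probe sets it was the lowest for 5342 (35.3%) and the highest for 5691. Genes low there included gnmt, a glycine methyltransferase (10.21 against 11.03 to 11.19 in its group), and gamt, which makes creatine (12.09 against 13.01 to 13.14), whereas mat2aa, a methionine adenosyltransferase gene, was high (10.75 against 7.43 to 7.76). The vitellogenin level of that array is given above, and its part in these values was not tested.

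**Figure D2:**
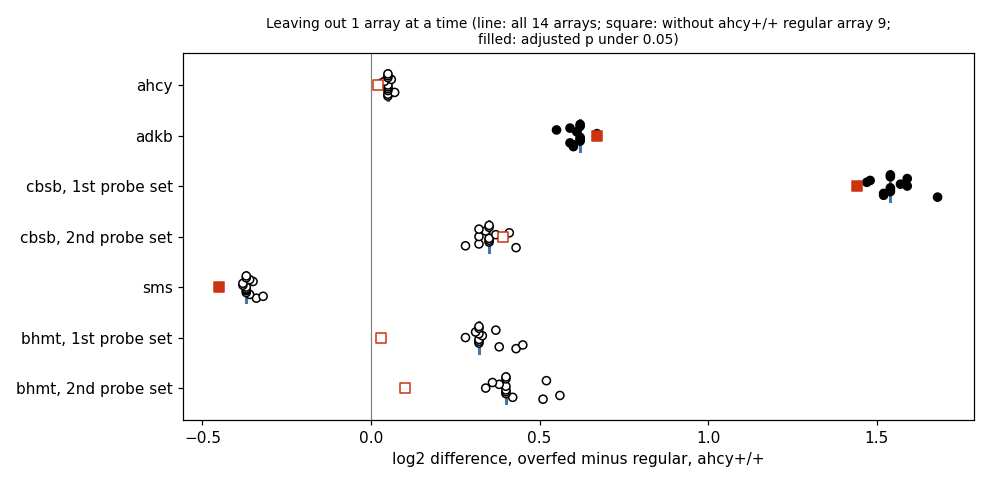
Overfed minus regular-diet log2 difference in ahcy+/+ livers for each probe set, refitted without 1 array at a time (points, spread vertically for legibility). The blue line is the fit of all 14 arrays, the red square the fit without ahcy+/+ regular-diet array 9, and filled symbols have an adjusted p under 0.05. The adkb and first cbsb calls held in all 14 fits, and both bhmt values move towards 0 without array 9.

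Set against all probe sets, the members' calls were as follows. Diet in ahcy+/+ livers called 3 of the 7 member probe sets, from 3 of the 5 genes, where 4.5% of all tested probe sets were called (3.07% higher and 1.43% lower after overfeeding). Of the 3, adkb and the first cbsb probe set were higher and sms lower. The same 3 were called over both genotypes, where the background was 10.3% (5.83% higher and 4.5% lower). In ahcy+/- livers alone 0 were called by limma, against 0.0991% of all, and 3 of 7 had an unadjusted p under 0.05, as did 2145 of 15134 probe sets in all. The number of all calls moved by over 1.5 times with single arrays. In ahcy+/+ livers 681 became 1341 without array 9, and 264, 300 and 335 without regular-diet ahcy+/+ arrays 2, 5 and 6, and it was 391 and 253 without overfed ahcy+/+ arrays 4 and 6. Over both genotypes 1564 became 941 without regular-diet ahcy+/- array 3, and 819 and 538 without overfed ahcy+/- arrays 1 and 4. The 15 calls in ahcy+/- livers ranged from 0, without overfed ahcy+/- array 4, to 91, without array 9. The split of all calls depended on scaling and on array 9. With all arrays 465 of 681 were higher in ahcy+/+ livers and 883 of 1564 over both genotypes. With each array centred on its median these were 621 of 786 and 1286 of 1646. They were 715 of 1341 and 1154 of 2318 without array 9. For ahcy+/- livers the counts were 10 of 15 and, with centring, 58 of 64, as centring moved the median of all differences there by 0.11. All 7 overfed arrays lay beyond all 7 regular-diet arrays for the same 3 probe sets. Of all tested probe sets 3.55% did so, and 8.68% separated the diets among ahcy+/+ arrays alone. These genes were picked with earlier results of the same arrays known, so the counts describe them and are no test of the group. Median diet differences of the 7 were 0.35 in ahcy+/+ and 0.03 in ahcy+/- livers, beside -0.03 and -0.09 over all tested probe sets. Markers of pancreas and intestine fell in mean over the same comparison, as given above. With the mean levels of both lists as covariates the ahcy+/+ differences were 0.63 for adkb (adjusted p = 0.0401), 1.38 for cbsb (adjusted p = 0.0103) and -0.48 for sms (adjusted p = 0.033). The hepatocyte list was not a covariate in any fit. Pearson's r with its mean level over the 14 arrays was 0.75 for adkb, 0.88 for the first cbsb probe set and -0.61 for sms. Without array 9 these were 0.88, 0.88 and -0.87. The list and these 3 probe sets each separate the diets fully, so the diet clusters alone give a large r. The r within groups was not computed for the list, so these values do not show that the transcripts follow it.

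**Figure D3:**
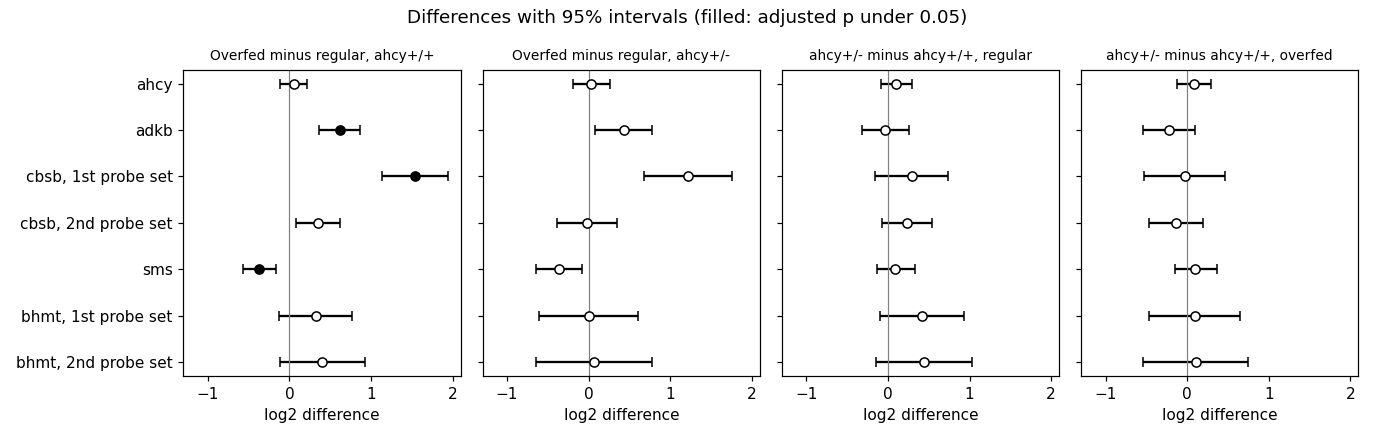
Log2 difference with its 95% interval for each probe set in the 4 comparisons of 2 groups, filled where the adjusted p was under 0.05. The filled points are those of adkb, the first cbsb probe set and sms for diet in ahcy+/+ livers, and every interval of the 2 genotype panels includes 0.

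Genotype made no detectable difference to any member. By limma 0 of 7 member probe sets were called on the regular diet, after overfeeding, or over both diets, and 0 had an unadjusted p under 0.05. The share called among all tested probe sets was 0% in each of these comparisons, and 459, 260 and 371 probe sets had an unadjusted p under 0.05. On the regular diet the 7 differences, ahcy+/- minus ahcy+/+, ran from -0.03 for adkb to 0.44 for the second bhmt probe set. After overfeeding they ran from -0.22 for adkb to 0.11. The intervals limit what these arrays could miss. For cbsb on the regular diet the interval was -0.16 to 0.74, for adkb -0.32 to 0.26, and for sms -0.14 to 0.33. The only genotype comparison whose arrays did not overlap was sms after overfeeding, where 6.65 and 6.64 lay just above 5 values of 6.46 to 6.61, with a difference of 0.10 (adjusted p = 1). The share of all probe sets that separated the genotypes there was not counted, so nothing particular to sms follows. The interaction called 0 of 7, with a smallest unadjusted p of 0.101, against 0% of all, of which 289 had an unadjusted p under 0.05. Tissue markers differed in mean between the genotypes on the regular diet, with 0 called. All 13 pancreas and all 10 intestine genes had higher means in ahcy+/- livers, and all 9 blood and leukocyte genes lower ones. Of all 15134 tested probe sets 9492 had higher means in ahcy+/- livers on that diet. The pancreas list averaged 12.21 in ahcy+/- and 10.47 in ahcy+/+ livers. With the pancreas and intestine covariates 0 member probe sets were called for genotype on either diet.

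The wider pathway held 70 further listed genes, of which 36 were measured. In ahcy+/+ livers 4 of the 36 rose after overfeeding and 1 fell, and 27 had a positive difference. Of all 15134 tested probe sets 4.5% were called and 6719 had a positive difference. The median of the 36 was 0.22, beside -0.03 for all. Over both genotypes 4 of the 36 rose and 1 fell, where 10.3% of all were called, so the share called was near the background. In ahcy+/- livers 0 were called by limma, 7 having an unadjusted p under 0.05, beside 2145 of all 15134. Genotype called 0 on either diet, with 1 under 0.05 on each, beside 459 of all on the regular diet and 260 after overfeeding.

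All 4 that rose in ahcy+/+ livers belong to polyamine control, the branch of sms. Antizymes (oaz1a, oaz1b) bind ornithine decarboxylase, the first polyamine enzyme, and lead it to destruction, while the antizyme inhibitor azin1b takes antizyme away from it. In ahcy+/+ livers azin1b rose from 11.72 ± 0.11 (SD, n = 4) to 12.43 ± 0.16 (SD, n = 5), a difference of 0.71 ± 0.13 (SE; adjusted p = 0.0125). The difference was 0.58 ± 0.14 for oaz1a (adjusted p = 0.0364) and 0.62 ± 0.12 for oaz1b (adjusted p = 0.0173). Spermine oxidase, smox, which degrades the product of sms, rose by 0.62 ± 0.15 (SE; adjusted p = 0.0319). Not all of this group moved: the antizyme gene oaz2b stood at -0.06 (adjusted p = 0.891) and the second inhibitor gene azin1a at 0.29 (adjusted p = 0.303). Over both genotypes azin1b (0.68, adjusted p = 0.00359), oaz1a (0.53, adjusted p = 0.0154) and oaz1b (0.73, adjusted p = 0.00196) rose, and smox did not pass (0.36, adjusted p = 0.0831). The smox difference in ahcy+/- livers alone stood at 0.09 (-0.34 to 0.53), with an interaction of -0.53 (95% interval -1.07 to 0.01, adjusted p = 1). Of the 10 polyamine genes measured other than sms, 8 had positive diet differences in each genotype. Of all 15134 tested probe sets 6719 did in ahcy+/+ and 5591 in ahcy+/- livers. Lower means belonged to oaz2b and to odc1, the ornithine decarboxylase gene, neither called. By diet odc1 averaged 6.51 and 6.23 in ahcy+/+ livers, and 6.18 and 5.86 in ahcy+/- livers. Regular-diet ahcy+/+ array 9 was high for odc1 (7.94 against 5.56 to 6.46 in its group). Second probe sets of azin1b (0.37, adjusted p = 0.129) and smox (0.04, adjusted p = 0.867) were not called in ahcy+/+ livers, whereas that of oaz1b was (0.71, adjusted p = 0.0129). Dimmer probe sets of the polyamine genes sat1a.1 (1.24, adjusted p = 0.0419) and sat1a.2 (0.63, adjusted p = 0.049) passed over both genotypes. Their brighter ones did not (0.89, adjusted p = 0.0855, and 0.53, adjusted p = 0.122). After quantile normalization the ahcy+/+ differences of azin1b, oaz1a and oaz1b were 0.43, 0.33 and 0.45, with adjusted p of 0.131, 0.184 and 0.0799. With the pancreas and intestine covariates azin1b stayed called (0.88, adjusted p = 0.0103), and oaz1a (0.66, adjusted p = 0.0554), oaz1b (0.62, adjusted p = 0.0526) and smox (0.59, adjusted p = 0.051) were not. The number of the 36 genes called in ahcy+/+ livers was 1 without regular-diet array 5 or overfed array 6, 2 without regular-diet array 2 or overfed array 4, and 3 without overfed array 2.

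The remaining branches held 1 further call. Thymidylate synthase (tyms), which uses a folate to make a DNA base, fell in ahcy+/+ livers from 7.25 ± 0.70 (SD, n = 4) to 6.09 ± 0.11 (SD, n = 5), a difference of -1.17 ± 0.26 (SE; adjusted p = 0.0264). Array 9 had the highest tyms value, 8.28, against 6.73 to 7.04 on the other 3 arrays of its group, and without it the difference was -0.82 (adjusted p = 0.0108). The call ended without regular-diet ahcy+/+ array 5 or overfed ahcy+/+ array 2, 4 or 6 (adjusted p from 0.0525 to 0.0729). With the pancreas and intestine levels as covariates the tyms difference stayed called in ahcy+/+ livers, and over both genotypes it was -0.55 and not called (adjusted p = 0.102). The other branches gave no call in ahcy+/+ livers. SAM synthesis was represented by mat1a, the liver form of methionine adenosyltransferase (12.24 ± 0.28, SD, n = 4, and 12.35 ± 0.21, SD, n = 5, by diet; adjusted p = 0.719). Methionine synthase (mtr), the folate-dependent route of remethylation, differed by 0.22 (-0.39 to 0.83, adjusted p = 0.714). Downstream of cbsb, the next enzyme, cystathionine gamma-lyase (cth), differed by 0.17 (adjusted p = 0.7), and cdo1, which oxidises cysteine, by 0.51 (adjusted p = 0.0558). The other measured genes leading their branches were gamt (0.05), aldh7a1 (0.00), which oxidises betaine aldehyde, the glycine cleavage gene gldc (0.48) and mtap (0.01), which starts methionine salvage, with adjusted p from 0.156 to 0.994. The differences in these other branches include array 9 and are not given without it. That array was high for mtr (8.50 against 7.19 to 7.42 in its group) and for gldc (11.16 against 10.72 to 10.88). It was low for cdo1 (11.49 against 11.89 to 12.26) and for cth (9.68 against 10.01 to 10.16). It was also low for mat1a (11.84 against 12.27 to 12.45), for aldh7a1 (10.82 against 11.28 to 11.48) and, as given above, for gamt. The genes ahcyl1, ahcyl2b, gnmt, mat2aa, oaz2b, azin1a, odc1, sat1a.1, sat1a.2 and cth are outside the rule for named genes and were chosen after their values were seen.

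**Figure D4:**
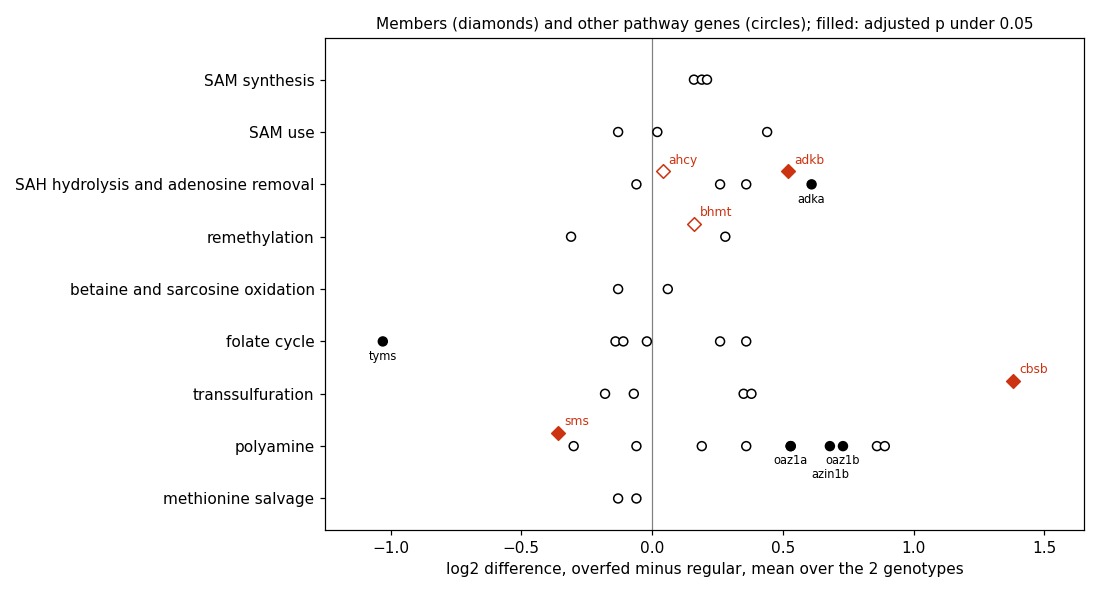
Overfed minus regular-diet log2 difference, averaged over the genotypes, for the 5 members (red diamonds, the brighter probe set of cbsb and bhmt) and the 36 other measured pathway genes (circles) by branch. Filled symbols have an adjusted p under 0.05. Among the circles, adka, azin1b, oaz1a and oaz1b passed on the higher side and tyms on the lower.

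The genes whose values followed each member most closely over the 14 arrays were listed by Pearson's r, among tested probe sets of 1 named gene. Since the diets form separate clusters, the r of deviations from the group means is given beside it, and both are descriptions of the same arrays. For adkb these were rab10, a vesicle transport GTPase (r = 0.96, 0.78 within groups), tspan36 (0.95 and 0.80) and rbm8a, a part of the exon junction complex (0.95 and 0.72). For the first cbsb probe set they were the tyrosine sulfotransferase gene tpst1 (0.96 and 0.77), p4ha1b, a collagen prolyl hydroxylase subunit (0.96 and 0.60), and diabloa, a mitochondrial regulator of cell death (0.95 and 0.65). For sms they were arl6ip4 (0.93 and 0.71), the replication clamp loader gene rfc5 (0.93 and 0.69) and rgcc (0.92 and 0.71). For bhmt they were the glycolytic genes gapdh (0.94 and 0.93) and tpi1b (0.94 and 0.96) and the ATP synthase gene atp5f1b (0.93 and 0.93). Both r values include regular-diet ahcy+/+ array 9, the low one for bhmt, and were not computed without it. The first bhmt probe set had an r of 0.55 with ahcy over all arrays and 0.16 without array 9. With the second bhmt probe set these were 0.97 and 0.93. For ahcy, whose whole range was 0.25, they were limch1b (0.86 and 0.82), prkaa1 (0.86 and 0.81) and ncapg (0.83 and 0.77). The genes listed for ahcy were dim, between 5.06 and 5.76 on all arrays and so below every array median.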

How the data were processed

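RNA of 14 adult zebrafish livers was measured on single-colour Affymetrix arrays. The authors deposited 1 log2 summary per probe set and array. Per the submitters' processing notes, GCRMA and Partek were among the tools; their versions, roles and order are not given in the sources used here. The log2 scale was read from the range, 0.464 to 14.74. Scanner files were not used here. Of 15617 probe sets, 115 controls were left out, as were 368 not above 4 on at least 2 arrays, leaving 15134. Gene symbols came from the platform annotation. Group means of all 14 arrays were fitted with limma 3.58.1 in R 4.3.3 (lmFit, eBayes; 10 residual and 3.06 prior degrees of freedom). Benjamini-Hochberg adjustment ran over all tested probe sets within each of 7 contrasts, with 95% intervals from the moderated t distribution. Precision is limited by the small groups.

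The members and lists were chosen with earlier results of these data known. Pathway genes were represented by their probe set with the highest mean. Named pathway genes were those called in any contrast and the one of highest mean level per branch; exceptions are stated. Alternatives were no dim filter, a filter at 6, trended robust moderation, only the groups compared, array weights, quantile normalization, median centring, vitellogenin or pancreas and intestine covariates, the replicate number as a block, and leaving out each array. A fit without the 2 arrays highest in vitellogenin was an alternative chosen after seeing the data. Plots used matplotlib 3.10.9 in Python 3.11.15.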

Additional observations from a re-analysis of the deposited data

Results flagged for a closer look

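In groups of 4 or 5 arrays, a gap test marks a value far from the rest of its group, and chance marks about 1 group in 20. Of 14 such groups of member values 1 was marked: adkb on regular-diet ahcy+/+ array 9, at 7.62 against 7.38 to 7.41 on the other 3 arrays. Of 72 groups of other pathway values 6 were marked, and 5 of those 6 were the same array. There the methionine adenosyltransferase gene mat2aa, the form used outside the adult liver in mammals, stood at 10.75 against 7.43 to 7.76. Its regulatory partner mat2b stood at 6.80 against 7.56 to 7.62. The liver methyltransferases gnmt and gamt were low, at 10.21 against 11.03 to 11.19 and at 12.09 against 13.01 to 13.14. The antizyme gene oaz2b was high, at 6.59 against 5.86 to 5.95. The sixth was adka on overfed ahcy+/+ array 7, at 10.73 against 11.17 to 11.26.

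The 7 member probe sets and 36 other pathway genes were searched for groups that separate fully in opposite directions. The share of all probe sets that do so was not counted. Opposite signs without full separation occurred too: cth averaged 9.97 and 10.14 by diet in ahcy+/+ livers, and 10.44 and 9.91 in ahcy+/- livers. The case found was pemt, which methylates phosphatidylethanolamine with SAM, and its diet difference was opposite in the 2 genotypes. In ahcy+/+ livers all 5 overfed values (6.48 to 7.27) were above all 4 regular-diet values (6.08 to 6.46), a difference of 0.55 (adjusted p = 0.0568). In ahcy+/- livers both overfed values (6.58 and 6.45) were below the 3 regular-diet values (6.81 to 7.14), a difference of -0.51 (adjusted p = 0.291). The interaction was -1.05 ± 0.25 (SE), with an unadjusted p of 0.0011 and an adjusted p of 1 over all probe sets by limma, so it did not pass.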

How the results depend on the processing

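The adkb and first cbsb differences in ahcy+/+ livers and over both genotypes kept their direction under every alternative run, and their calls under all except the replicate block. Leaving out 1 array at a time gave 0.55 to 0.67 for adkb and 1.44 to 1.68 for cbsb in ahcy+/+ livers, with adjusted p of at most 0.0463 and 0.00947. The sms call in ahcy+/+ livers ended with trended robust moderation (adjusted p = 0.0617), with only the groups compared (0.077), with quantile normalization (0.075) and with median centring (0.0808). Of 5 pairs of same-numbered arrays, 4 join fish of different tanks and 1 joins fish of the overfed tank. They had correlations of deviations from -0.23 to 0.16, and with groups this small such values cannot show whether same-numbered arrays are related. The pair within the overfed tank shares its number in the titles but not in the descriptions. The replicate block left 2 residual degrees of freedom and called 0 member probe sets and 0 pathway genes in ahcy+/+ livers and over both genotypes. It gave 0.70 for adkb, 1.37 for cbsb and -0.45 for sms in ahcy+/+ livers. The second cbsb probe set passed in ahcy+/+ livers with array weights (0.41, adjusted p = 0.0354).

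Counts of calls moved as follows. Of pathway genes in ahcy+/+ livers, 5 in the report, 8 were called with a filter at 6, 10 with array weights, 2 with quantile normalization, 8 with median centring and 3 with the pancreas and intestine covariates. Over both genotypes, again 5, it was 9 with array weights, 8 with centring and 10 with the vitellogenin covariate. In ahcy+/- livers, 0 in the report, it was 1 with array weights, 2 with centring, 1 with the vitellogenin covariate and 1 without the 2 arrays highest in vitellogenin. The member count there was 1 with array weights and 1 with centring. Leaving out 1 array gave 1 to 7 pathway genes in ahcy+/+, 0 to 1 in ahcy+/- and 3 to 6 over both genotypes, and 2 to 3, 0 to 1 and 2 to 3 member probe sets.

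Signs turned in differences that were not called, none of which passed after the turn. In ahcy+/- livers the diet difference of the second cbsb probe set was 0.02 with array weights, 0.09 with quantile normalization, 0.09 with centring and 0.30 with the block. That of bhmt was -0.38 and -0.36 (first and second probe set) with the pancreas and intestine covariates and -0.11 and -0.13 with the block. Over both genotypes bhmt was -0.16 and -0.13 with those covariates, and -0.02 on the first probe set with the block. For ahcy the block gave diet differences of -0.03, -0.04 and -0.03 (ahcy+/+, ahcy+/-, both) and genotype differences of -0.01 on each diet and -0.01 over both. Without the 2 arrays highest in vitellogenin its diet difference in ahcy+/- livers was -0.01. The ahcy interaction was 0.00 with quantile normalization, 0.04 with centring, 0.01 with the vitellogenin covariate and 0.02 with the other covariates. The bhmt interactions were 0.08 and 0.10 with the vitellogenin covariate, and 0.06 on the second probe set without the 2 arrays. On the regular diet the adkb genotype difference was 0.01 with array weights and 0.03 without the 2 arrays. After overfeeding the first cbsb probe set was at 0.03 with the vitellogenin covariate and 0.00 with the others, and the second at 0.03 with the block. Over both diets the first was at -0.21 with the block and -0.01 without the 2 arrays. Leaving out 1 array turned 10 such differences, with these ranges: ahcy diet in ahcy+/- -0.01 to 0.08, ahcy interaction -0.06 to 0.03, adkb genotype on the regular diet -0.13 to 0.04, first cbsb genotype after overfeeding -0.20 to 0.14, second cbsb diet in ahcy+/- -0.09 to 0.09 and genotype over both diets -0.01 to 0.09, sms interaction -0.04 to 0.09, bhmt diet in ahcy+/- -0.04 to 0.04 and -0.02 to 0.16, and second bhmt genotype after overfeeding -0.01 to 0.20. The ahcy genotype difference over both diets ranged from 0.07 to 0.11. The causes of these changes were not tested.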
